A study of Homo sapiens with 9 samples.

Results

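D-type cyclins, the kinases they activate, the inhibitors that hold those kinases back and the transcription factor MYC decide together how a cell in G1 responds to its medium. Their transcripts were examined in H295R cells kept in serum-free medium with metformin, in serum-free medium alone or in growth medium. The 10 genes were picked by name, with earlier results of these data known: MYC, the D cyclins CCND1, CCND2 and CCND3, the kinases CDK4 and CDK6, the inhibitors CDKN1A, CDKN1B and CDKN1C of the CIP/KIP family and the inhibitor CDKN2C of the INK4 family. The array annotation used here assigned 1 probe set to each of 9 of them, out of 33297 probe sets and 18417 named genes on the array. CDKN2C is not analysed here.

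H295R (NCI-H295R) is a steroid-producing line from a human adrenocortical carcinoma, so every group is the same tumour line and stands for no normal adrenal tissue. All cultures grew for 24 h in growth medium and were then incubated for 48 h under 1 of 3 conditions. The starvation with metformin group received 10 mM metformin, a biguanide that inhibits mitochondrial complex I, in medium without serum. The starvation group received the serum-free medium alone, and the normal growth group stayed in growth medium. That growth medium also contained insulin, transferrin and selenium, which the starvation medium lacked, so loss of serum and loss of these supplements cannot be told apart. Each group has 3 arrays, named A, B and C, and the 9 arrays are described as coming from 3 independent experiments, without saying whether a letter marks 1 experiment. Metformin was given only in starvation medium, and no array holds metformin in growth medium.

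Growth factors and nutrients raise D cyclins, which bind CDK4 or CDK6 and start the phosphorylation of the retinoblastoma protein. This frees E2F factors, which switch on cyclin E, the activators of CDK2 and the genes of DNA replication. CIP/KIP proteins bind cyclin-kinase complexes and block CDK2, while INK4 proteins bind CDK4 and CDK6 alone. MYC, a factor that binds DNA with its partner MAX at E-boxes, raises genes of ribosome building and metabolism, supports D cyclin and CDK4 transcription in many cell types, and is known to repress CDKN1A. CDKN1A is in turn the best-known target of p53. In adrenocortical tissue, CDKN1C is an imprinted growth inhibitor that is often reduced in carcinoma.

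The arrays were alike as a whole. Their medians lay between 6.04 and 6.16 on the log2 scale of the RMA signal, and arrays of 1 group correlated at 0.99 to 0.997 over all probe sets. Array C correlated least with its own group among the starvation with metformin arrays (mean correlation 0.9918), and array B among the starvation arrays (0.9945). No member had the same unrounded value on 2 arrays. The labelled cell type was checked with 12 adrenocortical markers, of which 9 lay above the array median on every array of each group. The mean level of these markers was 9.25 to 9.41 in starvation with metformin, 9.35 to 9.38 in starvation and 9.46 to 9.56 in normal growth. Against starvation, 2 of the 12 were called lower with metformin (NR5A1, the master regulator of steroidogenic cells, with a log2 change of -0.46, and SULT2A1, the DHEA sulfotransferase, with -0.82) and MC2R, the ACTH receptor, was called higher (1.02), 3 of 12 beside 4.28% of all probe sets. Against normal growth 4 were called lower (SULT2A1, NR5A1, INHA and SCARB1, with log2 changes of -1.19, -0.57, -0.55 and -0.31). MC2R was called higher (1.2), which makes 5 of 12 called beside 9.07% of all probe sets. MC2R signal was low, at 5.38, 5.32 and 5.26 in starvation and 5.32, 4.95 and 5.13 in normal growth, under the array medians. With metformin it was 6.27, 6.72 and 6.02. Mean levels of the 7 immune markers were 4.47 to 4.71 in both starvation with metformin and starvation and 4.58 to 4.65 in normal growth, with no marker above the median on every array of a group. The other lists were not low throughout. In each group, 3 of 10 fibroblast, 3 of 9 epithelial and 1 of 8 endothelial markers lay above the array median on every array. The fibroblast, endothelial and chromaffin lists had no called gene in any comparison, and of the 9 epithelial markers only EPCAM was called, higher by 0.57 in starvation with metformin than in normal growth. What part these marker shifts have in the results below was not tested.

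Metformin in starvation medium was compared with starvation medium alone to see what the drug added to the loss of serum. MYC, CCND3 and CDKN1A were lower with metformin, each by less than 2-fold, and no member was higher. Differences were tested with limma on the 6 arrays concerned, p values were adjusted over all 33297 probe sets, and a gene was called at an adjusted p under 0.05. By this rule 3 of the 9 members were called, all lower, where 4.28% of all probe sets were called and 1.98% were called lower. These shares include 12083 probe sets without a symbol, while the members lay at percentiles 53 to 98.3 of mean signal. In a fit of single-symbol probe sets only, 2037 of 19460 were called, and 4 of the 9 members. Named genes were thus called more often here than all probe sets, which also bears on the shares set beside gene lists below. The median log2 change of the 9 members was -0.17, against -0.01 for all probe sets. The groups did not overlap in 5 of the 9 members (MYC, CCND2, CCND3, CDK4 and CDKN1A), all lower with metformin, and they did not overlap in 25.2% of all probe sets. In these bulk samples, fewer cells with a transcript and less of that transcript per cell cannot be told apart.

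MYC showed the largest log2 change of the members in this comparison. Its log2 signal was 8.45, 8.52 and 8.74 on the starvation with metformin arrays A, B and C, against 9.41, 9.33 and 9.29 on the starvation arrays. The lowest starvation array lay 0.55 above the highest metformin array, and array C was the highest of the metformin arrays. The means were 8.57 ± 0.15 with metformin and 9.34 ± 0.058 in starvation (SD, n = 3 each), a log2 change of -0.77 ± 0.09 (SE) and a 1.71-fold lower signal (adjusted p = 0.0183).

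CCND3, the D cyclin best known from lymphoid cells, had a narrower spread with metformin than MYC or CDKN1A. Its log2 signal was 10.00, 10.09 and 10.06 with metformin, against 10.57, 10.67 and 10.58 in starvation. The change was -0.55 ± 0.06 (SE) on the log2 scale (1.47-fold, adjusted p = 0.0165), and the gap of 0.48 between the groups was wider than the range inside either one. CCND2, a D cyclin that granulosa and pancreatic beta cells need to multiply in mice, differed by a like amount with a wider spread. Its log2 signal was 9.63, 9.88 and 9.46 with metformin, against 10.21, 10.18 and 10.21 in starvation, so all metformin arrays were lower but they differed more among themselves. The log2 change of CCND2 was -0.54 ± 0.11 (SE, 95% interval -0.82 to -0.27), and it missed the threshold (adjusted p = 0.0573). CCND1 signal lay close to the array medians in all groups, at 6.21, 6.44 and 6.39 with metformin against 6.35, 6.64 and 6.36 in starvation. These CCND1 values overlapped, and the interval of the log2 difference was -0.37 to 0.16 (adjusted p = 0.669).

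CDKN1A, the inhibitor induced by p53, had a log2 signal of 8.25, 8.25 and 7.92 with metformin, against 8.67, 8.78 and 8.86 in starvation. It was thus lower on every metformin array, most on array C. The log2 change was -0.63 ± 0.11 (SE, 1.54-fold, adjusted p = 0.0419). CDKN1B, which holds resting cells in G1 and is mainly controlled through protein decay, had a log2 signal of 10.66, 10.54 and 10.55 with metformin against 10.58, 10.64 and 10.55 in starvation. The log2 difference was 0.00, with a 95% interval of -0.15 to 0.14. CDKN1C had a log2 signal of 7.56, 7.74 and 7.92 with metformin against 7.71, 7.95 and 7.69 in starvation, with an interval of -0.33 to 0.25. Both inhibitors overlapped between the groups.

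CDK4 and CDK6 are the catalytic partners of the D cyclins. CDK4 had a log2 signal of 11.82, 11.74 and 11.81 with metformin against 11.97, 11.97 and 11.93 in starvation, without overlap but with a small change of -0.17 ± 0.05 (SE, 1.12-fold). That change did not pass over all probe sets (adjusted p = 0.148). CDK6 signal was 10.26, 10.10 and 10.04 with metformin against 10.35, 10.12 and 10.22 in starvation. CDK6 overlapped between the groups, and the log2 difference had an interval of -0.32 to 0.13.

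The calls of this comparison depended on single arrays and on the processing. CDKN1A was not called with the arrays shifted to a common median (adjusted p = 0.0575), and neither CDKN1A nor MYC was called by the methods' t-test (adjusted p = 0.109 for CDKN1A and 0.0527 for MYC). With starvation array A, B or C or metformin array A left out, no member was called and none of the 33297 probe sets was either. In these fits 4 or 5 members had an unadjusted p under 0.05 in limma. Many probe sets reach that level. With all arrays kept, CDK4 at an unadjusted p of 0.0186 in limma was only 4176th of 33297 by p. This also bears on the counts at an unadjusted p under 0.05 given below. Without metformin array B the calls were CCND2 and CCND3, and without metformin array C they were CCND3, CDKN1A and MYC. The log2 change lay between -0.86 and -0.71 for MYC, between -0.58 and -0.52 for CCND3 and between -0.68 and -0.51 for CDKN1A over all alternatives.

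**Figure D1:**
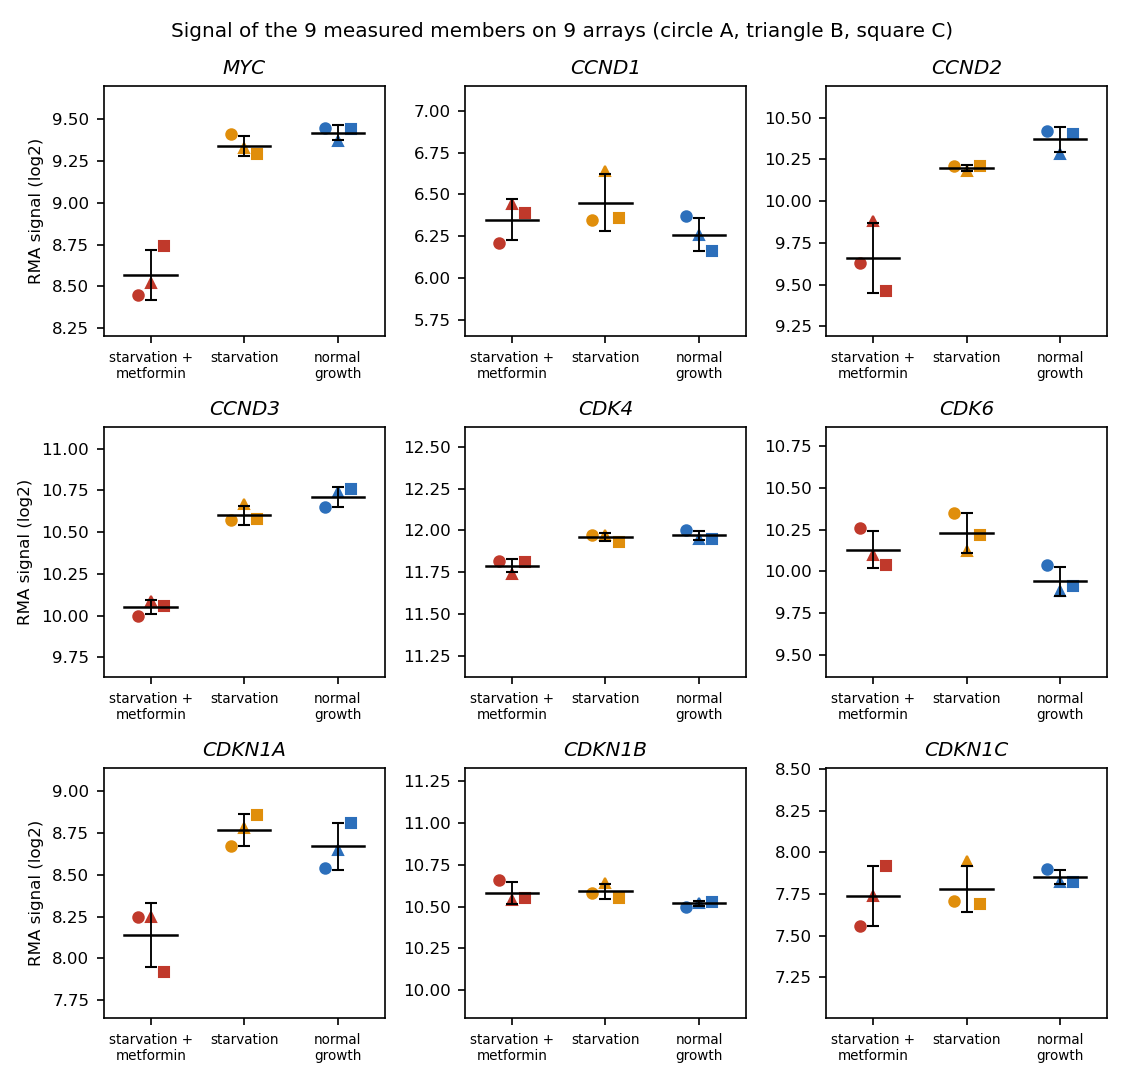
RMA signal on the log2 scale (vertical axis, the same span in each panel) of the 9 measured members in starvation with metformin, starvation and normal growth (left to right); points are arrays A (circle), B (triangle) and C (square), lines are means and bars SD (n = 3). MYC, CCND2, CCND3, CDK4 and CDKN1A lie lower on all 3 metformin arrays than on any starvation array.

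Promoter windows of 3 members are shown for the letters around their start sites. RefSeq windows of 300 bases, 250 before and 50 from the start site, were used for 6 of the 10 members, as 11 windows of build GRCh38.p14. One of the 3 windows of CCND3 (chr6:41941759-41942058, minus strand), the only window of CDK4 (chr12:57752261-57752560, minus strand) and the only window of CDKN1A (chr6:36678464-36678763, plus strand) follow, with matches to the searched motifs in capitals. CCND3 and CDKN1A were called lower with metformin than in starvation, and CDK4, which was not called, is given beside them for its E-boxes.
CCND3: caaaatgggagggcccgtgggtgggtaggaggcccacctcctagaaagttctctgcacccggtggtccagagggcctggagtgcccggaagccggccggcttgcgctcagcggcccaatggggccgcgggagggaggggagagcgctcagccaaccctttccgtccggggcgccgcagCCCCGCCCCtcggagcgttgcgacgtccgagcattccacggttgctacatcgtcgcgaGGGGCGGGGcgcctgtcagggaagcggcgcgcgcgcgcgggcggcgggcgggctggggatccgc
CDK4: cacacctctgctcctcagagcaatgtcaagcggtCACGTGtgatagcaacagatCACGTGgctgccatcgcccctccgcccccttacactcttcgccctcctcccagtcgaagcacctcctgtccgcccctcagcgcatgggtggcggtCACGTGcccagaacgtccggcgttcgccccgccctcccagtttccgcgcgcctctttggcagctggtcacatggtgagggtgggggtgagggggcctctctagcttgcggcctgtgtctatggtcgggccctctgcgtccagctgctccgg
CDKN1A: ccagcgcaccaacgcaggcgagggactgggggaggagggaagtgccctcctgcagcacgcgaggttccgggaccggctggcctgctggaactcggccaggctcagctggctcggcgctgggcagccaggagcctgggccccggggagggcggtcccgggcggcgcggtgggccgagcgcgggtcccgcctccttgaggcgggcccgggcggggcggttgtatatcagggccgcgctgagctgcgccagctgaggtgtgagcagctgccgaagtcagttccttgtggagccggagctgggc

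The capitals in CCND3 are the GC box GGGGCGGGG, which Sp1-type factors bind, at -14 on the gene's strand and at -72 on the other strand, counted from the start site. A second CCND3 window also holds 2 GC boxes and the third none. The capitals in CDK4 are 3 copies of the E-box CACGTG at -216, -196 and -101. Both strands were searched for these and for the CRE TGACGTCA, the AP-1 site TGACTCA, the E2F sites TTTCGCGC and TTTGGCGC and the TATA box TATAAA, and none of the searched motifs occurs in the CDKN1A or CDKN1B windows. CDK6 has 1 E-box in 1 of its windows, at 30, and CDKN2C has 1 E-box in each of 2 of its 3 windows, at -220 and -69. Of all 35116 RefSeq windows of this length, 15.7% hold the GC box, 7.26% the E-box, 11.5% the TATA box, 4.95% the AP-1 site, 1.85% the CRE and 0.515% and 0.652% the E2F sites. These are matches of letters and say nothing on which factor was bound in H295R cells.

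Starvation was compared with normal growth to see what the loss of serum and supplements alone did to these genes. No member was called, where 0.150% of all probe sets were called. At an unadjusted p under 0.05 in limma there were 2 members, CDK6 higher and CCND2 lower, and the methods' t-test also called none after adjustment. The median log2 change of the members was -0.01, against 0 for all probe sets. The groups did not overlap in 3 of 9 members, 2 higher and 1 lower in starvation, where 13.0% of all probe sets did not overlap.

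CDK6 had a log2 signal of 10.35, 10.12 and 10.22 in starvation, against 10.04, 9.88 and 9.91 in normal growth. Every starvation array was higher, and the log2 change was 0.29 ± 0.08 (SE, 95% interval 0.09 to 0.48, adjusted p = 0.376). CCND2 signal was 10.21, 10.18 and 10.21 in starvation, against 10.42, 10.28 and 10.40 in normal growth. All starvation arrays were thus lower, by a log2 change of -0.17 ± 0.05 (SE, adjusted p = 0.453). CDKN1B was the other member without overlap, at 10.58, 10.64 and 10.55 in starvation against 10.50, 10.52 and 10.53 in normal growth, a log2 change of 0.07 with an interval of -0.04 to 0.18.

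MYC, whose transcript is short-lived and falls within hours when growth factors are withdrawn from many cell types, had a log2 signal of 9.41, 9.33 and 9.29 in starvation against 9.45, 9.37 and 9.44 in normal growth. The arrays overlapped and the 95% interval of the log2 change was -0.20 to 0.05. CCND1, the D cyclin most often used as a readout of serum stimulation, was measured at 6.35, 6.64 and 6.36 in starvation and at 6.37, 6.26 and 6.16 in normal growth (interval -0.06 to 0.43). CCND3 signal was 10.57, 10.67 and 10.58 in starvation against 10.65, 10.74 and 10.76 in normal growth, with an interval of -0.24 to 0.02. The limits of these intervals lie under 0.5 on the log2 scale, so a 2-fold change of MYC, CCND1 or CCND3 is outside them.

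The remaining members overlapped between starvation and normal growth. CDKN1A was at 8.67, 8.78 and 8.86 in starvation against 8.54, 8.65 and 8.81 in normal growth (log2 change 0.10, interval -0.11 to 0.31). CDKN1C was at 7.71, 7.95 and 7.69 in starvation against 7.90, 7.82 and 7.82 in normal growth (interval -0.26 to 0.13). CDK4 was at 11.97, 11.97 and 11.93 in starvation against 12.00, 11.95 and 11.95 in normal growth, and its interval of -0.11 to 0.09 was among the narrowest.

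Starvation with metformin was then set against normal growth, which adds the change of medium to the drug. This comparison shares its metformin arrays with the first and its normal growth arrays with the second, so its values are no separate evidence. MYC, CCND3 and CCND2 were called, all lower with metformin and none by 2-fold. These are 3 of 9 members, where 9.07% of all probe sets were called and 4.44% were called lower. Here too the shares include the 12083 probe sets without a symbol, and the share among named genes is not given. The median log2 change was -0.18 for the members and 0 for all probe sets. The groups did not overlap in 6 of 9 members, 5 of them lower with metformin, where 28.4% of all probe sets did not overlap.

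MYC averaged 8.57 ± 0.15 with metformin and 9.42 ± 0.045 in normal growth (SD, n = 3 each), a log2 change of -0.85 ± 0.09 (SE, 1.80-fold, adjusted p = 0.00707). CCND3 averaged 10.05 ± 0.043 with metformin and 10.71 ± 0.058 in normal growth, a change of -0.66 ± 0.06 (SE, 1.58-fold, adjusted p = 0.00535). CCND2 averaged 9.66 ± 0.21 with metformin and 10.37 ± 0.077 in normal growth, a change of -0.71 ± 0.12 (SE, 1.64-fold, adjusted p = 0.0204). The mean of CCND2 in starvation, 10.20 ± 0.017, lay between these 2 values and its arrays overlapped with neither group.

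CDKN1A averaged 8.14 ± 0.19 with metformin and 8.67 ± 0.14 in normal growth, and its change of -0.53 ± 0.12 (SE) fell just short of the threshold (adjusted p = 0.0504). CDK4 averaged 11.79 ± 0.04 with metformin and 11.97 ± 0.029 in normal growth (change -0.18 ± 0.05, SE, adjusted p = 0.0863). CDK6 averaged 10.13 ± 0.11 with metformin and 9.94 ± 0.088 in normal growth, and the interval of its log2 difference was -0.01 to 0.39. CDKN1B was higher on all metformin arrays by a gap of only 0.01, with a log2 difference of 0.06 and an interval of -0.07 to 0.20. CCND1 and CDKN1C overlapped between the groups, with intervals of -0.13 to 0.30 and -0.34 to 0.13.

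With normal growth array A, B or C or metformin array A left out, CCND2 was no longer called (adjusted p 0.0689 to 0.0932) and the members called were CCND3 and MYC. CCND3 and MYC were called whichever 1 of the 6 arrays was left out. Of all 33297 probe sets, 3021 were called with every array kept and 3734 without metformin array C. Totals without each of the other arrays are not given here, so these calls are not set against them.

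**Figure D2:**
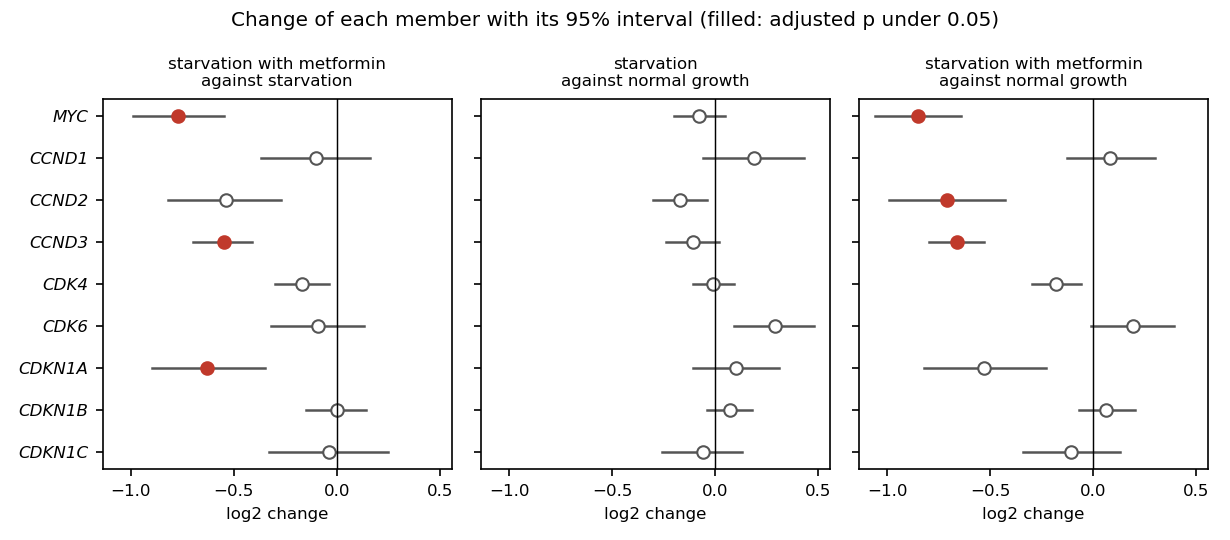
Log2 change (horizontal axis) of each of the 9 measured members in the 3 comparisons, with 95% intervals from limma as lines; filled points passed an adjusted p of 0.05 over all probe sets. The filled points are MYC, CCND3 and CDKN1A for metformin against starvation and MYC, CCND2 and CCND3 for metformin against normal growth, and starvation against normal growth has none.

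Put in order of level across the 3 conditions, MYC, CCND3, CDK4 and CDKN1A were lowest with metformin, and their starvation and normal growth arrays overlapped. CCND2 was the 1 member whose 3 groups were all apart, in the order metformin, starvation and normal growth from low to high, although the step from starvation to normal growth did not pass the test. CDK6 ran the other way for starvation, with normal growth lowest, and the metformin arrays overlapped with both other groups. CDKN1B was also lowest in normal growth, by gaps that were small beside its intervals. CCND1 and CDKN1C had no pair of groups that was apart. The levels of different genes are not compared with each other here, because probe sets differ in their response.

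Of the members, MYC, CCND2, CCND3 and CDKN1A had group means that spanned at least 0.5 on the log2 scale (0.85, 0.71, 0.66 and 0.63). For each of them, the named genes with the most similar profile over the 9 arrays were taken, measured by the root mean square difference of the log2 signals after each gene's own mean was removed. Nearest to MYC were H3C8, a histone H3 gene (0.069), NRGN, a calmodulin-binding protein (0.094), and MCM7, a subunit of the replicative helicase (0.096). The group means of MCM7 were 9.92 with metformin, 10.58 in starvation and 10.67 in normal growth. H3 genes are nearly identical in sequence, so the H3C8 signal may include other copies.

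Nearest to CCND3 were UFD1, a partner of the segregase VCP (0.042), SLC44A4, a membrane transporter (0.043), and TYMS, thymidylate synthase (0.051). TYMS averaged 10.39 with metformin, 10.97 in starvation and 11.07 in normal growth. CCND2 was followed most closely by SAFB2, a nuclear matrix protein (0.049), SHQ1, an assembly factor of small nucleolar ribonucleoproteins (0.055), and DGCR8, the RNA-binding partner of DROSHA (0.058). Nearest to CDKN1A were GARIN1B (0.077), GPHN, which encodes gephyrin (0.079), and MCM4, another helicase subunit (0.080). MCM4 averaged 9.53 with metformin, 10.11 in starvation and 10.07 in normal growth. These 9 arrays fall into 3 groups, so likeness here is mostly likeness of group means.

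**Figure D3:**
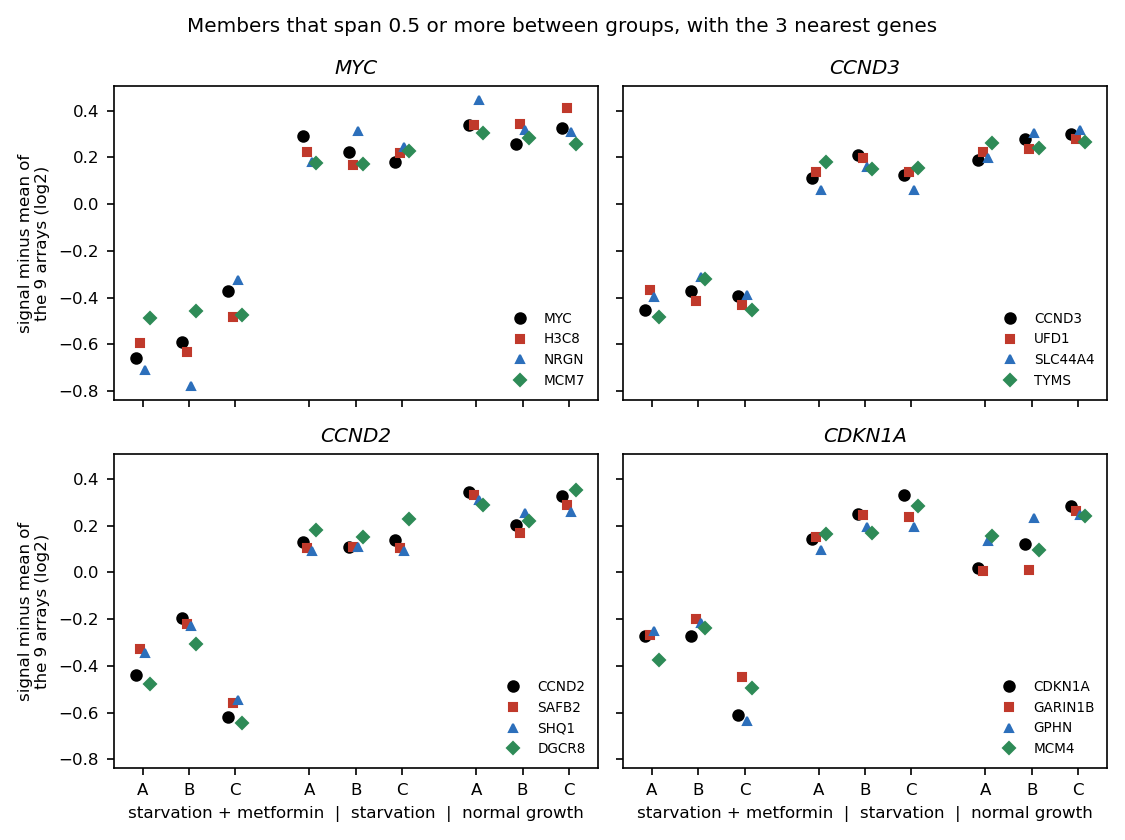
Log2 signal minus each gene's mean over the 9 arrays (vertical axis) for MYC, CCND3, CCND2 and CDKN1A (black circles) and the 3 genes nearest to each, on arrays A, B and C of starvation with metformin, starvation and normal growth (left to right). In every panel the metformin arrays lie below 0 and the arrays of both other groups above it.

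Around the members, E2F factors and genes of the cyclin E step were looked at next. Of the 15 E2F factors and partners, 4 were called lower and none higher with metformin against starvation, where 4.28% of all probe sets were called and 1.98% were called lower. The list median was -0.15, against -0.03 for all named genes. The 4 were MYBL2, E2F2, E2F7 and E2F8. MYBL2, a factor that acts with the LIN proteins in S and G2 phase, had a log2 signal of 9.11, 9.04 and 9.03 with metformin against 9.92, 9.84 and 9.89 in starvation, a change of -0.82 ± 0.06 (SE, adjusted p = 0.0118). Activator E2F2 changed by -0.58 (adjusted p = 0.0347), and the atypical repressors E2F7 and E2F8, themselves raised late in G1 in cycling cells, changed by -0.57 (adjusted p = 0.0169) and -0.50 (adjusted p = 0.0277). Against normal growth, 6 were lower with metformin and 1 higher, where 9.07% of all probe sets were called and 4.44% were called lower, and the list median was -0.24 against -0.02. TFDP1, the DNA-binding partner of E2F (-0.26), and the repressor E2F4 (-0.24) joined the lower ones there, and the repressor E2F5 was higher by 0.22. Starvation against normal growth had no call among the 15 in limma and 2 genes at an unadjusted p under 0.05.

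Of the 20 genes of cyclins E and A, CDK2 and its activators and degraders, 3 were called lower with metformin against starvation and none higher, beside 1.98% of all probe sets called lower. The list median was -0.05, against -0.03 for all named genes. CCNE2, a cyclin E that binds CDK2, had a log2 signal of 8.58, 8.91 and 8.33 with metformin against 9.87, 9.60 and 9.79 in starvation, a change of -1.15 ± 0.16 (SE, 2.21-fold, adjusted p = 0.0246). DTL, the receptor of a ubiquitin ligase that marks CDKN1A protein for decay during S phase, changed by -0.77 (adjusted p = 0.0119). CDC25A, the phosphatase that activates CDK2, changed by -0.63 (adjusted p = 0.0198). CCNE1 was called against normal growth (-0.56, adjusted p = 0.0147), where it stood beside CCNE2, DTL, CDC25A and the mitotic activator CDC20 (-0.42) as 5 of 20 lower and none higher, beside 4.44% of all probe sets called lower. For CCNE1 the change against starvation was -0.28 (adjusted p = 0.0937). Starvation against normal growth had no call in limma among these 20 and 4 genes at an unadjusted p under 0.05. The 7 other inhibitors and pocket proteins (CDKN2A, CDKN2B, CDKN2D, CDKN3, RB1, RBL1 and RBL2) had no call in any comparison. None had an unadjusted p under 0.05 in limma, and no list median went beyond 0.07. RB1 signal was only 3.5 to 3.56 on the 9 arrays, far below the array medians of 6.04 to 6.16. Its flat values therefore do not show that RB1 was expressed and unchanged.

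MYC's partners and targets were described in the same way. In the MYC network, 13 of 14 genes were measured. MXI1, an antagonist that competes with MYC for MAX, was the only call with metformin against starvation. That is 1 of 13 genes (7.69%), beside 4.28% of all probe sets called and 2037 of 19460 in the single-symbol fit. MXI1 had a log2 signal of 7.89, 7.73 and 7.76 with metformin against 7.24, 7.32 and 7.32 in starvation, a change of 0.50 ± 0.07 (SE, adjusted p = 0.024). It was also the only call against normal growth (0.66, adjusted p = 0.0159), where 9.07% of all probe sets were called. MIR17HG, the host of a microRNA cluster that MYC activates, had a change of -0.52 against normal growth and did not pass (adjusted p = 0.144). No gene of the network was called between starvation and normal growth in limma, and 1 had an unadjusted p under 0.05.

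Of 22 MYC targets of the nucleolus and of metabolism, 19 were measured. With metformin against starvation 1 was called lower, the ribosome assembly factor NOP16 (-0.44, adjusted p = 0.0459), and 1 higher, the pyrimidine synthesis enzyme CAD (0.45, adjusted p = 0.0457). These are 2 of 19, or 10.5%, beside 4.28% of all probe sets. The fit restricted to single-symbol probe sets called 2037 of 19460, so this count does not set the list apart from named genes. The list median was -0.15, against -0.03 for all named genes. Against normal growth 8 were lower with metformin and 1, again CAD (0.38), was higher, beside 9.07% of all probe sets called in either direction and 4.44% called lower. The list median there was -0.25, against -0.02. Those lower included the ribosome assembly factors MRTO4 (-0.58), NOP16 (-0.49), RRS1 (-0.48) and PES1 (-0.35), the polyamine enzyme ODC1 (-0.48), the pre-rRNA processing factor RRP9 (-0.33) and nucleolin, NCL (-0.29). None was called between starvation and normal growth, and 3 had an unadjusted p under 0.05 in limma.

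CDKN1A is also a p53 target, and 21 of 23 other p53 targets were measured. The list moved both ways. With metformin against starvation the death receptor TNFRSF10B was called higher (0.50, adjusted p = 0.024) and the nuclease AEN lower (-0.35, adjusted p = 0.042). These are 2 of 21, or 9.52%, beside 4.28% of all probe sets and 2037 of 19460 in the single-symbol fit. This count does not set the list apart from named genes. The list median was 0.10 against -0.03 for all named genes. Against normal growth, 4 were higher with metformin: SESN2, a stress-induced regulator of mTORC1 (0.67), the RNA-binding protein ZMAT3 (0.63), TNFRSF10B (0.44) and the DNA repair factor XPC (0.37). AEN (-0.51) and the oxidoreductase TP53I3 (-0.30) were lower there, which makes 6 of 21 called, beside 9.07% of all probe sets. SESN2 and TNFRSF10B are also known targets of the stress factors ATF4 and CHOP. Between starvation and normal growth no p53 target was called in limma, and 3 had an unadjusted p under 0.05.

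Of 9 reference genes, chosen as usual controls for expression, 8 were measured. None was called with metformin against starvation, although 3 had an unadjusted p under 0.05 in limma, the largest change being that of GUSB (0.29, adjusted p = 0.0648). B2M was higher with metformin than in normal growth (0.30, adjusted p = 0.047), 1 of 8 beside 9.07% of all probe sets called. The list medians were -0.04, 0.02 and -0.01 in the 3 comparisons (metformin against starvation, starvation against normal growth, metformin against normal growth).

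List counts changed with single arrays too. For metformin against starvation, without starvation array B, no gene of any list was called, and no probe set at all. Without metformin array C, 2 E2F factors and partners and 3 genes of the cyclin E step were called lower, MXI1's list had 1 call higher, the MYC targets had none and the p53 targets had 1 higher. Of all 33297 probe sets, 1189 were called there, against 1425 with every array kept. In the same setting against normal growth, E2F factors and partners had 5 lower and 1 higher, the cyclin E step 5 lower, MYC targets 7 lower and 1 higher, and p53 targets none lower and 5 higher. There 3734 of 33297 probe sets were called, against 3021 with every array kept.

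**Figure D4:**
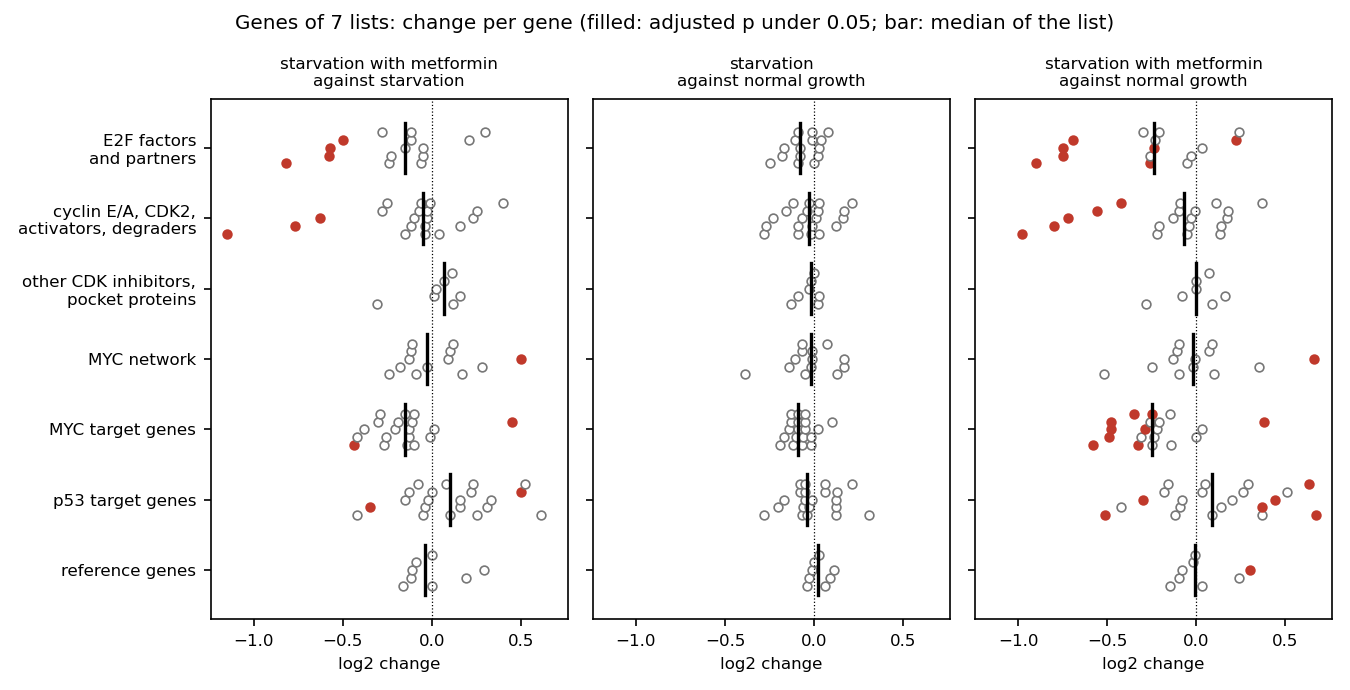
Log2 change (horizontal axis) of each measured gene of 7 lists in the 3 comparisons, 1 point per gene; filled points passed an adjusted p of 0.05 over all probe sets and bars are list medians. The filled points below 0 lie mostly in the E2F list and the cyclin E list for metformin against starvation, the MYC targets join them against normal growth, and the panel of starvation against normal growth has no filled point.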

How the data were processed

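RNA of 9 H295R cultures, 3 for each condition, was measured on GeneChip Human Gene 1.0 ST arrays. The values deposited by the authors are log2 expression values of 33297 probe sets. According to the submitters' processing notes they were made with RMA in Affymetrix Expression Console and analysed with limma. The array section of the methods gives Affymetrix Power Tools instead. The version of each tool was not given in the sources used here. Background correction, quantile normalization and probe summary by RMA compress large changes and hide a shift shared by most transcripts. No further normalization was applied. Arrays have no read depth, and 3 per group limit the precision: an exact permutation test of 3 against 3 cannot go below 0.1.

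Only probe sets with 1 symbol in the platform annotation were named (19460, with several symbols in 1754 and none in 12083). A gene with more than 1 probe set was read from the brightest. The limma functions lmFit and eBayes (limma 3.58.1, R 4.3.3) compared each pair of groups on its 6 arrays, with Benjamini-Hochberg adjustment over all probe sets, after the script was tested on simulated data. The 10 members, the 7 gene lists and the 6 marker lists were chosen with earlier results of these data known. Named were all members, up to 8 called genes of each list with the largest changes (the 2 largest at an unadjusted p under 0.05 where fewer than 2 were called), and the 3 nearest profiles of each member spanning 0.5 or more. Marker genes named beside their lists and the genes of the list of other inhibitors fall outside this rule. Alternatives were a fit of all 9 arrays, a common array median, repeated quantile normalization and a filter that dropped probe sets under the 40th percentile. Others were a fit of single-symbol probe sets, averaging the probe sets of a gene and eBayes with trend and robust options. The last were Student's t-test, a block for the replicate letter, and leaving out each array. Student's t-test is named in the general statistics of the methods, not in their array section. List counts without starvation array B and without metformin array C were added after seeing the data.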

Additional observations from a re-analysis of the deposited data

How the results depend on the processing

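MYC, CCND2, CCND3, CDK4 and CDKN1A were lower with metformin, against starvation and against normal growth, in each of the 15 alternatives. The number of members called was less stable, and the cause was not tested. For metformin against starvation it was 3, and became 5 with trend and robust eBayes. It was 1 with Student's t-test (CCND3, with 5 members at an unadjusted p under 0.05). With the replicate letter as a block it was 0, and with 1 array left out 0 to 3. Shifting arrays to a common median gave 2. The number called over all 33297 probe sets changed as well. It was 1425 in the main fit, 2469 with trend and robust eBayes, 650 with Student's t-test and 611 with a common median. For metformin against normal growth the number of members called was 3. It became 5 in the fit of all 9 arrays, without dim probe sets and with trend and robust eBayes. With the replicate block it was 0, and with 1 array left out 2 to 3. Of all 33297 probe sets, 3021 were called in the main fit of this comparison and 3734 without metformin array C. Apart from the block, totals of the other settings are not given here, so the rise to 5 is not read as particular to the members. For starvation against normal growth the number of members called was 0 under every alternative, the block included. The block fits called 0 of 33297 probe sets in each comparison. Deviations of same-lettered arrays correlated between -0.25 and 0.29 over the comparisons (0.024 to 0.13 for starvation against normal growth), and not every array correlated best with its own letter. Whether a letter marks 1 experiment is unknown, so the block was used only as an alternative. With an array left out, CDKN1B (-0.04 to 0.02) and CDKN1C (-0.13 to 0.05) changed sign for metformin against starvation, and CDK4 (-0.02 to 0.01) for starvation against normal growth. The adjusted p of MYC for metformin against starvation ranged over the alternatives from 0.00153 to 0.115, that of CCND3 from 0.00137 to 0.114 and that of CDKN1A from 0.0116 to 0.168 (under 0.05 in 7 of 15). With 3 arrays a group the precision is limited, and CCND1 signal lay near the array medians. What limits the calls was not tested.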
